A study of Mus musculus with 2 samples.

Results

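The cytosolic ribosome is built from a large (60S) and a small (40S) subunit, each a ribosomal RNA core covered with ribosomal proteins. The large-subunit proteins carry the prefix Rpl and the small-subunit proteins the prefix Rps, and Rplp0, Rplp1 and Rplp2 form the acidic stalk that recruits translation factors. Their mRNAs are among the most abundant of any cell, and most begin with a C followed by a run of pyrimidines at the very 5′ end, the TOP motif, through which mTOR signalling controls their translation. Here the transcripts of these genes were followed in regulatory T cells (Tregs) lacking Bcl11b, a zinc-finger protein that T cells need to keep their identity.

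Members were the gene probes whose name in the files began with Rpl or Rps and a digit, or was Rpsa, Rplp0, Rplp1 or Rplp2, leaving out S6 kinases (Rps6k) and names marked as pseudogenes. The rule, which uses names alone, gave 84 of 28090 genes, read by 145 of 41174 probes on 154 of 43379 spots. They comprised 46 large-subunit genes, 31 small-subunit genes, 6 paralogues (Rpl39l, Rps27l, Rpl22l1, Rpl7l1, Rpl36al and Rpl3l) and Rps19bp1, whose product binds Rps19 and is not a ribosomal protein. Fau, which encodes a ribosomal protein fused to a ubiquitin-like protein, falls outside the naming rule and is given beside the members.

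Each of 2 two-colour arrays set Bcl11b-deficient Tregs, in Cy5, against wild-type Tregs, in Cy3, all on a C57BL/6 background. On the Cd4Cre array the deficient cells came from Bcl11bF/F/Cd4Cre/Foxp3-GFP+ mice, in which Cre acts in T cells from their development in the thymus, and both channels held cells sorted for Foxp3-GFP. On the Foxp3Cre array they came from Bcl11bF/F/Foxp3Cre mice, in which Cre acts once Foxp3 is expressed. The wild-type cells were pooled from 3 mice on each array; the number of mice behind the deficient cells is not given in the sources used here. With 1 array per Cre system and no dye swap, a single array has no replicate check, and dye and genotype cannot be told apart.

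Bcl11b itself had log2 ratios, deficient over wild type, of -2.46 on the Cd4Cre and -1.82 on the Foxp3Cre array at its brighter probe, and of -1.19 and -0.32 at its other probe. Between 15231 and 15915 genes were detected per array, meaning that either channel of the brightest probe stood well above background, and no spot was saturated. The cells also differed in other genes. Of the 9 T and Treg identity genes, 9 were below 0 on the Cd4Cre array (median -1.99) and 5 on the Foxp3Cre array (median -0.05, or 0.34 with median centring and 0.061 with the scanner ratio). Signals are given on the log2 scale after background correction, loess and scaling of both arrays to one distribution. Foxp3 had log2 signals of 8.93 in deficient and 12.50 in wild-type cells on the Cd4Cre array, against 9.82 in deficient and 10.02 in wild-type cells on the Foxp3Cre array.

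Ribosomal protein transcripts were mostly higher in Bcl11b-deficient Tregs, with a median log2 ratio of 0.47 on the Cd4Cre and 0.78 on the Foxp3Cre array, against -0.05 and -0.08 for all detected genes. Of the 84 genes, 83 were above background in both channels of both arrays, and Rpl3l, a form of Rpl3 known from muscle, was below background throughout. On the Cd4Cre array 59 of the 83 had a ratio above 0, where 47.2% of all detected genes did. On the Foxp3Cre array 74 did, where 45.4% of all detected genes did. A total of 57 members lay above 0 on both arrays, which is 68.7% of the members beside 30.2% of all genes detected on both.

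At least 2-fold higher in deficient cells were 15 members on the Cd4Cre array, or 18.1%, where 11.4% of all detected genes were. On the Foxp3Cre array 21 members passed 2-fold, or 25.3%, where 2.94% of all genes did. Both arrays showed 12 members at least 2-fold higher, or 14.5%, beside 1.34% of all genes. In the other direction 2 members were at least 2-fold lower on the Cd4Cre array (10.6% of all genes) and 1 on the Foxp3Cre array (11.5% of all genes). Rpl4 alone was at least 2-fold lower on both, as were 4.57% of all genes.

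The mean ratio of both arrays was tested with limma over 14410 genes, with 1 residual degree of freedom. It called 0 members and 0 of all genes (0%) after Benjamini-Hochberg adjustment, where the lowest adjusted p was 0.104 in limma. At an unadjusted p under 0.05, 27 members were higher, beside 8.47% of all genes, and 3 were lower, beside 14.1% of all genes. The sizes depended on the correction of the ratio for signal strength. With each array centred on its median and no loess curve, the member medians were 1.84 and 2.17, while those of all genes were 0.07 and 0.16; with the deposited scanner ratio they were 0.28 and 0.48.

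**Figure D1:**
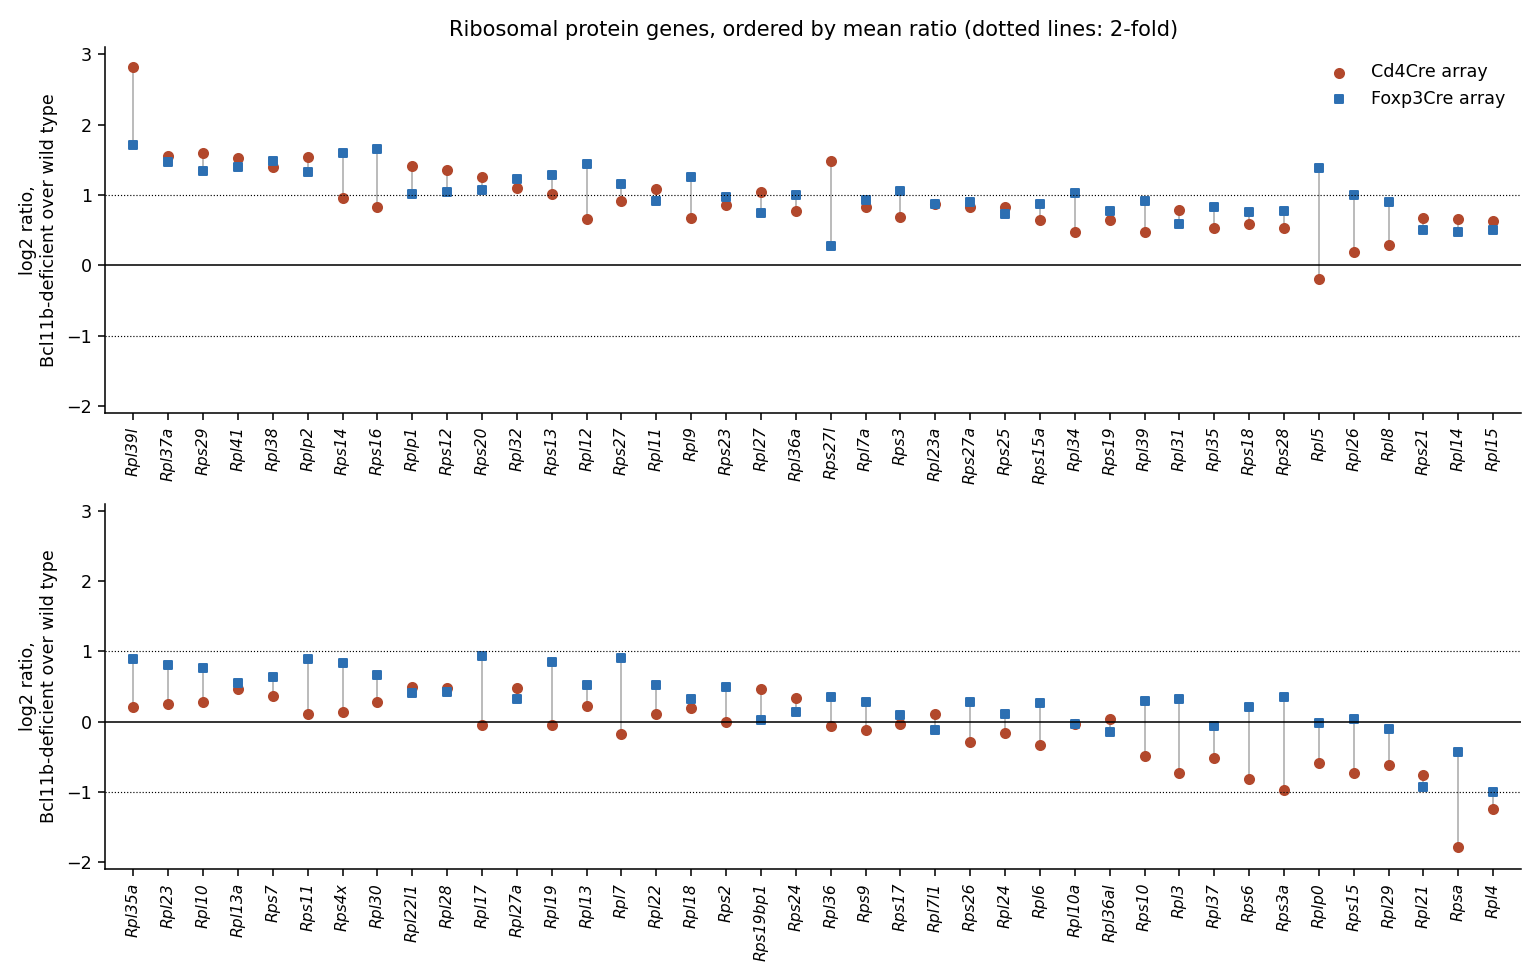
Log2 ratio, Bcl11b-deficient over wild type, of 80 of the 83 detected genes, ordered by the mean of both arrays over 2 rows; circles are the Cd4Cre array and squares the Foxp3Cre array. In the upper row 11 genes lie above the upper 2-fold line on both arrays, and Rpl4, at the far right of the lower row, lies below the lower 2-fold line on both.

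Pyrimidine runs that begin with C, as the TOP motif does, lie near the annotated starts of some of these genes. RefSeq start-site entries on GRCm38.p6 existed for 64 of the members, some with more than 1 start, which gave 76 windows. The windows below run from 20 bases before to 20 bases from the annotated start, on the coding strand, with the longest pyrimidine run that begins with C in capitals. They belong to high-ratio genes (Rpl38, Rplp2, Rps12, Rpl41), to the lowest gene (Rpl4) and to Rpl7a, which has the longest run of those shown.
Rpl38, chr11:114668560-114668599, plus strand: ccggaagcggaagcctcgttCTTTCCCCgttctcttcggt
Rplp2, chr7:141447631-141447670, plus strand: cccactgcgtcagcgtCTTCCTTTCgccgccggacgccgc
Rps12, chr10:23787190-23787229, minus strand: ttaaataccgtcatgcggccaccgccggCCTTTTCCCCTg
Rpl41, chr10:128549149-128549188, minus strand: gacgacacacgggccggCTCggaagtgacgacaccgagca
Rpl4, chr9:64173367-64173406, plus strand: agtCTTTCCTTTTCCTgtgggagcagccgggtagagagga
Rpl7a, chr2:26910787-26910826, plus strand: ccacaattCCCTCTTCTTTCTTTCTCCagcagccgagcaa

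A run of at least 8 such bases stood in 31 of the 76 member windows, or 40.8%, and in 12.6% of the 32851 windows of all RefSeq promoters. On the opposite strand the shares were 5.26% of member windows and 13.7% of all windows. The presence of a run went with no consistent size of ratio. The 30 detected members with a run had medians of 0.48 on the Cd4Cre and 0.57 on the Foxp3Cre array, and the 33 with an entry but no run had medians of 0.37 and 0.77. Rpl4, with a run of 13 bases, had the lowest mean ratio of all members, and Rpl41, with a run of 3, one of the highest. A run was counted anywhere in the window, and not only at the very 5′ end, where the TOP motif lies. A match describes these letters only and is no measured site.

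Among the large-subunit proteins the median ratio was 0.37 on the Cd4Cre and 0.81 on the Foxp3Cre array. Of these 46 genes, 32 were above 0 on both arrays, 6 below 0 on both and 8 of opposite sign. Of all 14410 genes detected on both, 4353 were above 0 on both, 5466 below 0 on both and 4591 of opposite sign. Rpl38, whose loss in the mouse disturbs axial patterning through translation of Hox mRNAs, had log2 signals of 18.03 in deficient and 16.63 in wild-type cells on the Cd4Cre array. On the Foxp3Cre array its signals were 17.89 in deficient and 16.41 in wild-type cells. The deficient channel was thus the brighter on both arrays, with ratios of 1.40 and 1.48. The software's error on its own scanner ratio was 0.23 on each array.

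Rpl37a, a zinc-binding protein of the 60S subunit, had signals of 18.15 in deficient and 16.59 in wild-type cells on the Cd4Cre array and of 18.03 and 16.57 in deficient and wild-type cells on the Foxp3Cre array. Its mean log2 ratio was 1.51 ± 0.33 (SE, 2 arrays; limma adjusted p = 0.104), the highest among the core subunit genes. Rpl41, which encodes a very short basic peptide, had signals of 18.01 in deficient and 16.49 in wild-type cells on the Cd4Cre array, and of 17.84 in deficient and 16.44 in wild-type cells on the Foxp3Cre array. Both genes were more than 2-fold higher on each array. Rpl32, a further 60S protein, also passed 2-fold on both, with ratios of 1.097 and 1.223.

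Rpl5 and Rpl11 carry the 5S ribosomal RNA into the subunit and, when free, bind Mdm2 and stabilise p53. Rpl11 was higher on both arrays at its brightest probe, with ratios of 1.09 on the Cd4Cre and 0.91 on the Foxp3Cre array. Its dimmer probe, on a sequence other than a RefSeq transcript, gave -0.50 and -1.02. Rpl5 had signals of 17.72 in deficient and 17.92 in wild-type cells on the Cd4Cre array, a ratio of -0.20, and of 17.82 in deficient and 16.43 in wild-type cells on the Foxp3Cre array, a ratio of 1.39. At the probes used, both partners were thus higher in deficient cells on the Foxp3Cre array and Rpl11 alone on the Cd4Cre array. The gap of 1.59 between the arrays for Rpl5 was the widest of any member. Rpl12, at the base of the stalk, and Rpl9 likewise had higher ratios on the Foxp3Cre array, 1.45 and 1.25, than on the Cd4Cre array, 0.66 and 0.67. A dimmer Rpl9 probe, also outside the RefSeq transcripts, gave -0.47 on the Cd4Cre and -0.525 on the Foxp3Cre array.

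The lowest gene was Rpl4, a 60S protein that lines part of the exit tunnel for the nascent chain. Its signals were 15.52 in deficient and 16.77 in wild-type cells on the Cd4Cre array, and 14.83 in deficient and 15.83 in wild-type cells on the Foxp3Cre array. The wild-type channel was the brighter on both arrays, and the mean log2 ratio was -1.13 ± 0.33 (SE, 2 arrays; limma adjusted p = 0.120). Rpl21 had ratios of -0.76 on the Cd4Cre and -0.94 on the Foxp3Cre array at its brightest probe, but of 0.53 and 0.47 at its other probe, on the RefSeq transcript. Rpl3, which reaches towards the peptidyl transferase centre, had ratios of -0.74 on the Cd4Cre and 0.32 on the Foxp3Cre array. At the probes used, Rpl29 and Rpl37 lay below 0 on both arrays. Rpl29 had ratios of -0.61 and -0.10 and Rpl37 of -0.52 and -0.06. A far dimmer Rpl37 probe, at base 629, gave 0.97 and 0.74. Other Rpl29 probes, also dimmer, gave -0.28 and 0.03 at base 151, -0.09 and 0.17 at base 220, and 0.16 and 0.36 at base 247. With median centring the mean ratios of Rpl29 and Rpl37 turned to 0.90 and 1.02, and that of Rpl3 to 1.16.

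Of the stalk genes, Rplp1 and Rplp2 had log2 ratios above 1 on both arrays, and the sign of Rplp0 depended on the probe. Rplp2 had signals of 18.21 in deficient and 16.68 in wild-type cells on the Cd4Cre array, and of 17.99 in deficient and 16.66 in wild-type cells on the Foxp3Cre array. Rplp1, its partner in the stalk dimer, had ratios of 1.42 on the Cd4Cre and 1.01 on the Foxp3Cre array. Rplp0, which anchors the dimers, had ratios of -0.59 and -0.03 at its only probe under that name. With median centring its mean ratio was 0.92. This probe begins at base 64 of a sequence other than a RefSeq transcript. That probe was spotted 10 times on each array, and the ratios ran from -0.62 to -0.55 on the Cd4Cre array and from -0.07 to 0.05 on the Foxp3Cre array. The repeated spots thus agreed far more closely than the probes of the gene did. A pair of other Rplp0 probes, which the files list under the older name Arbp, had ratios of 0.42 and 1.31 (start at base 619) and of 0.74 and 0.73 (start at base 1028) on the Cd4Cre and Foxp3Cre arrays. Whether these starts count along the same sequence as base 64 is not given here.

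Among the 31 small-subunit proteins the median ratio was 0.58 on the Cd4Cre and 0.78 on the Foxp3Cre array, and 30 of the 31 lay above 0 on the Foxp3Cre array. Rps29, a zinc-binding protein of the 40S head, had signals of 18.03 in deficient and 16.44 in wild-type cells on the Cd4Cre array, and of 18.05 in deficient and 16.71 in wild-type cells on the Foxp3Cre array. Its ratios of 1.59 and 1.34 were higher than 2-fold on both arrays, as were those of Rps12 (1.36 and 1.04), Rps20 (1.26 and 1.07) and Rps13 (1.01 and 1.28). Rps14, of the 40S platform, and Rps16, whose tail reaches the decoding region, had the highest ratios of the small subunit on the Foxp3Cre array, 1.60 and 1.65, with 0.96 and 0.83 on the Cd4Cre array. Rps27a, made as a fusion with ubiquitin, had ratios of 0.83 and 0.90.

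Rpsa, also known as the laminin receptor, had the lowest ratio of the small subunit. Its brightest probe had signals of 15.56 in deficient and 17.34 in wild-type cells on the Cd4Cre array, and of 15.38 in deficient and 15.81 in wild-type cells on the Foxp3Cre array. The ratios were -1.78 and -0.43 there, but 1.53 and 0.76 at its second probe, 1262 bases further along the transcript. That second probe was much dimmer, with signals of 11.23 in deficient and 9.70 in wild-type cells on the Cd4Cre array. Its signals on the Foxp3Cre array were 11.29 in deficient and 10.52 in wild-type cells. Rps6, the main ribosomal substrate of the S6 kinases, had ratios of -0.82 on the Cd4Cre and 0.21 on the Foxp3Cre array. Rps3a had ratios of -0.97 and 0.36, and Rps15, of the 40S head, of -0.73 and 0.04. With median centring the mean ratios of Rpsa, Rps6, Rps3a and Rps15 were 0.04, 1.03, 1.15 and 0.83, so their direction rests on the correction for signal strength.

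Several proteins with known roles outside the ribosome lay between these extremes. Rps19, the gene most often mutated in Diamond-Blackfan anaemia in people, had ratios of 0.64 on the Cd4Cre and 0.78 on the Foxp3Cre array. Rps3, which also has a role in DNA repair and binds NF-kB, had ratios of 0.68 and 1.05. Rpl13a, part of an interferon-induced complex that silences translation in human myeloid cells, had ratios of 0.47 and 0.55. These 3 genes were higher in the deficient channel of both arrays at the probe used. The RefSeq probe of Rps19 at base 136 gave -0.43 and -0.11, and that of Rps3 at base 191 gave 0.06 and 0.0042.

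The paralogues were compared with their parent genes. Rpl39l, a form of Rpl39 best known from testis, had the highest ratio of all members, with signals of 11.96 in deficient and 9.14 in wild-type cells on the Cd4Cre array and of 11.27 in deficient and 9.56 in wild-type cells on the Foxp3Cre array. Its mean log2 ratio was 2.27 ± 0.38 (SE, 2 arrays; limma adjusted p = 0.104), whereas Rpl39 had ratios of 0.47 and 0.92. Rps27l, a p53 target, had ratios of 1.48 on the Cd4Cre and 0.27 on the Foxp3Cre array, the widest gap in that direction, while its parent Rps27 had 0.92 and 1.16. Rpl22, which is required for the development of alpha-beta T cells in the mouse, had ratios of 0.10 and 0.53, and its paralogue Rpl22l1 of 0.50 and 0.41. Rpl7l1 and Rpl36al lay within 0.15 of 0 on both arrays, as Rpl10a did. Rps19bp1 had ratios of 0.46 and 0.03.

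Across the 83 members the ratios of the 2 arrays went together (Pearson r = 0.737, Spearman rho = 0.706, across genes that share the same arrays and dye order), and over all 14410 genes the values were 0.476 and 0.496. Genes are not independent replicates. Opposite signs on the arrays were seen for 19 of the 83 members and for 31.9% of all genes detected on both. Of the 83 members 17 were below 0 on the Cd4Cre array and above 0 on the Foxp3Cre array, as were 14.1% of all genes. The other way lay 2 members, and 2563 of all 14410 genes. The shift between arrays was not tested, since each Cre system had 1 array.

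**Figure D2:**
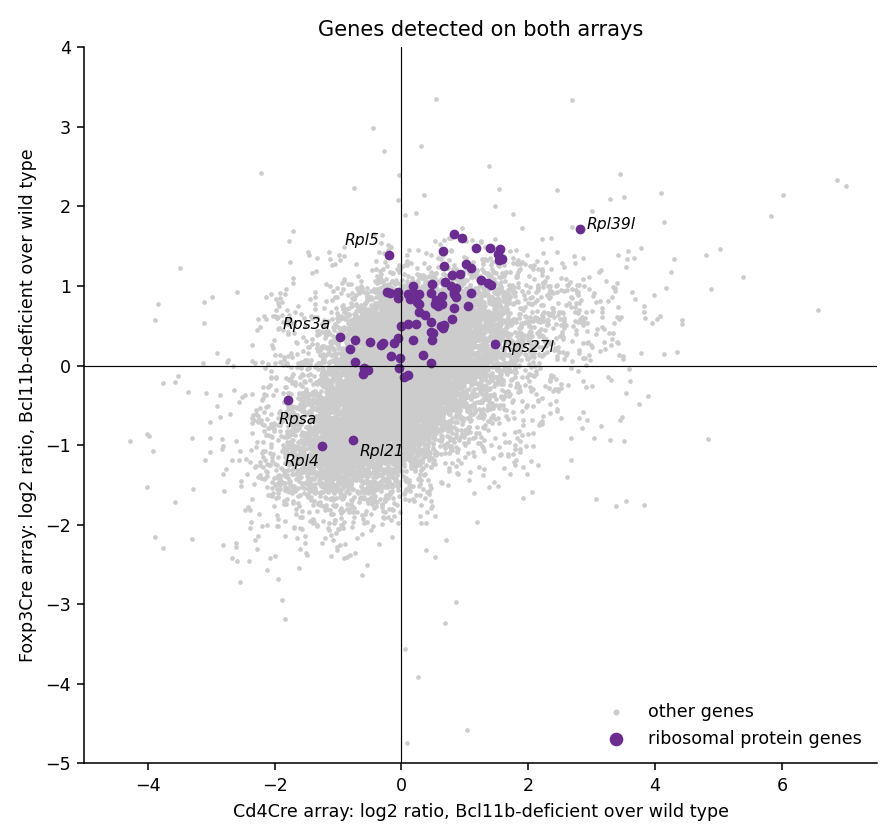
Log2 ratio on the Foxp3Cre array (vertical) against the Cd4Cre array (horizontal), Bcl11b-deficient over wild type, for 14410 genes detected on both; grey points are other genes and purple points the ribosomal protein genes. Most purple points lie to the upper right of the zero lines (57 of 83), and 17 to the upper left.

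Other gene groups of translation were set beside the members. The 75 mitochondrial ribosomal protein genes are encoded in the nucleus but serve the mitochondrial ribosome. Their median was 0.67 on the Cd4Cre array, with 15 (20%) at least 2-fold higher, beside 11.4% of all genes. On the Foxp3Cre array their median was 0.13, with 0 at least 2-fold higher, beside 2.94% of all genes. With median centring the medians were 1.103 and 0.82. The 10 elongation factor and other TOP-mRNA genes had medians of -0.08 and 0.47, or 1.17 and 1.80 with median centring; Gnb2l1 (now Rack1), a scaffold on the 40S subunit, had ratios of 0.51 and 1.16, and Eef2, the translocation factor, of -1.52 and -2.23. The 31 initiation factor genes had medians of -0.08 and -0.24, which turned to 0.82 and 0.64 with median centring, and by mean ratio ran from Eif1ay at 1.09 and 0.41 to Eif4g1, the scaffold of the cap-binding complex, at -1.11 and -2.14. Fau, with ratios of 1.90 and 1.73, was at least 2-fold higher on both arrays.

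The 35 ribosome biogenesis genes had medians of -0.28 and -0.22, which turned to 0.023 and 0.36 with median centring. At least 2-fold lower were 1 of them on the Cd4Cre array, beside 10.6% of all genes, and 5 on the Foxp3Cre array, beside 11.5% of all genes. Among them was Rpo1-4 (now Polr1a), the largest subunit of RNA polymerase I, with ratios of -1.27 and -1.24. Ubtf, which activates that polymerase, had ratios of -0.69 and -1.60. The highest by mean ratio were Nola2 (now Nhp2), of the H/ACA snoRNPs, with 0.88 and 0.30, and Bxdc1, with 0.67 and 0.48. Dkc1, the pseudouridine synthase of those particles, was the 1 gene at least 2-fold higher on the Foxp3Cre array, beside 2.94% of all genes, with ratios of 0.12 and 1.03.

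The 15 genes of mTOR signalling, its TOP-mRNA effectors and Myc had medians of -0.70 and -0.72, or -0.17 and -0.21 with median centring. Of the 15 genes 13 were below 0 on both arrays, as were 5466 of all 14410 genes detected on both. Tsc1 and Tsc2, which together restrain mTOR complex 1, had the lowest mean ratios, with -1.95 and -1.65 for Tsc1 and -1.37 and -1.22 for Tsc2. Larp1, which binds the cap and TOP sequence of these mRNAs, had ratios of -1.02 and -0.92, and Myc, which promotes ribosome production, of -0.88 and -0.44. The exceptions were Eif4ebp1 (1.08 and 0.15) and Rheb (0.26 and 0.34).

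**Figure D3:**
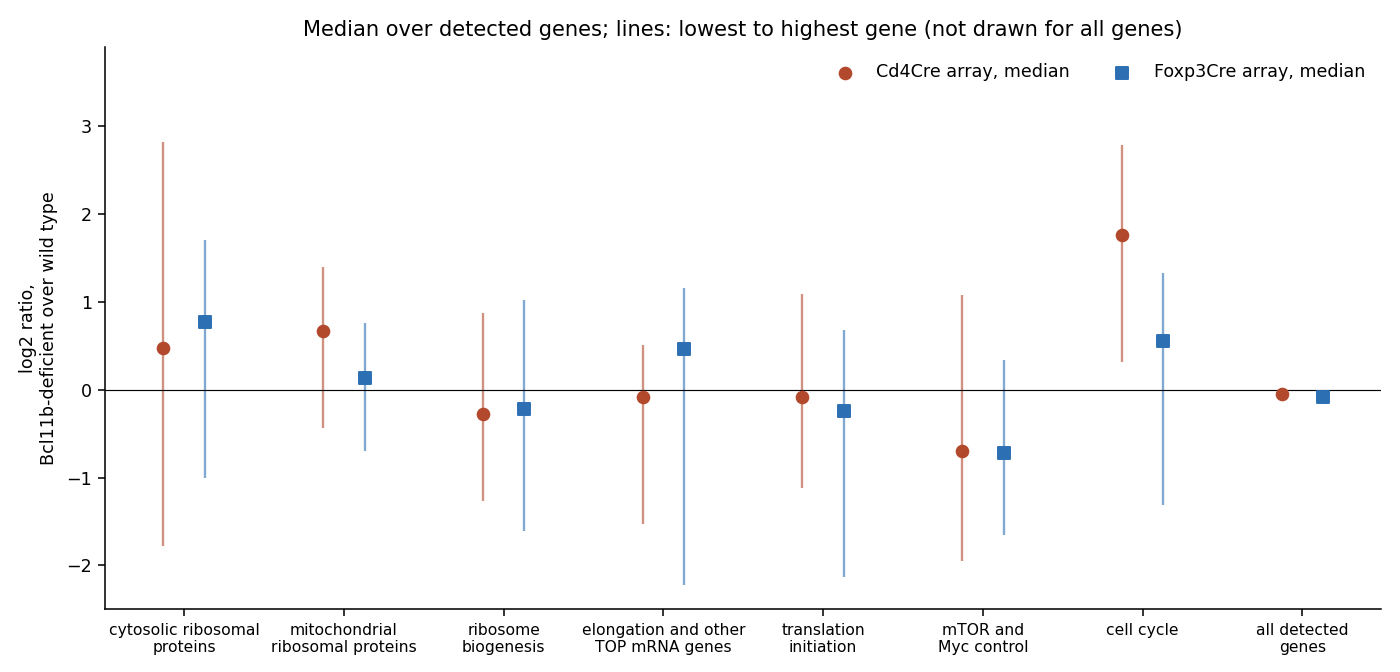
Median log2 ratio, Bcl11b-deficient over wild type, of each gene list (vertical axis), with circles for the Cd4Cre array and squares for the Foxp3Cre array; the vertical lines run from the lowest to the highest gene of a list. The cytosolic ribosomal protein genes have medians of 0.47 and 0.78, and the mTOR and Myc list has medians of -0.70 and -0.72.

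Other features of the cells were read beside the ribosomal protein genes. All 15 cell cycle genes were above 0 on the Cd4Cre array (median 1.76) and 11 on the Foxp3Cre array (median 0.56). The 8 NK and cytotoxic markers had medians of 3.12 and 0.64, with 7 above 0 on each array, and their summed log2 signal was 18.47 in deficient and 14.91 in wild-type cells on the Cd4Cre array and 15.83 in deficient and 15.42 in wild-type cells on the Foxp3Cre array. The 11 myeloid markers had medians of 3.58 and 1.37, with 9 above 0 on the Cd4Cre array and 7 of 10 on the Foxp3Cre array, and their summed signal was 18.89 in deficient and 15.42 in wild-type cells on the Cd4Cre array and 18.03 in deficient and 17.18 in wild-type cells on the Foxp3Cre array. The median of each of these lists was above 0 on both arrays, while Prf1, the pore-forming protein of cytotoxic cells, had ratios of -0.53 and -0.61 and Csf1r, a macrophage receptor, had -1.51 and -1.20.

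The B cell and CD8 T cell markers were higher on the Cd4Cre array, with medians of 0.88 and 1.88, and near 0 on the Foxp3Cre array, at -0.14 and 0.05; Pax5, a defining B cell gene, was below background throughout. The erythroid markers had medians of 0.67 and 0.56. All 7 salivary gland markers were lower in deficient cells on the Foxp3Cre array (median -3.50). The part of these differences in the ribosomal protein ratios was not tested, and in bulk RNA fewer cells of a type and less RNA per cell cannot be told apart.

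Where along the transcript a probe lies went with the ratio it gave. Of the members, 42 had several probes above background in both channels of both arrays, and in 18 of them the probes differed by 1 or more in log2 on at least 1 array. In 23 members a probe nearest the 5′ end could be set against one at least 100 bases closer to the 3′ end on a RefSeq transcript. The probe nearer the 3′ end gave the higher ratio in 18 of the 23 on the Cd4Cre and in 18 on the Foxp3Cre array, and in 16 (69.6%) on both. The median difference was 0.62 on the Cd4Cre and 0.46 on the Foxp3Cre array. In 2848 such pairs of other genes the probe nearer the 3′ end was the higher in 42.4% and 49.5%, on both arrays in 25.7%, with median differences of -0.10 and -0.0029. Other genes had a median gap of 1111 bases between the probes and the members of 265; with gaps under 400 bases the shares were 12 and 11 of 13 members, and 54.9% and 51.1% of 479 other pairs.

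The probes of Rpl7a show the pattern within a single transcript, and those of Rps29 and Rpl4 read a gene with a high ratio and the gene with the lowest mean ratio. Each is a 60-base oligonucleotide from the files, given 5′ to 3′ in lower case with the base of the transcript where it begins and its place on mm9; a place longer than the probe is one whose bases lie in more than 1 exon.
Rpl7a, base 196, chr2:26766993-26767052, plus strand: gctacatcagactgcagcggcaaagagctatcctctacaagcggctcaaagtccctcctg
Rpl7a, base 726, chr2:26768694-26768753, plus strand: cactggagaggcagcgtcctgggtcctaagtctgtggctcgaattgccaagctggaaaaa
Rps29, base 120, chr12:70258803-70259701, minus strand: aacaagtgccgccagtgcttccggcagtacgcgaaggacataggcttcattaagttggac
Rpl4, base 153, chr9:64022737-64022796, plus strand: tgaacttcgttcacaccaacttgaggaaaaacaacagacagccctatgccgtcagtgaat

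Rpl7a, a large-subunit protein next to the exit tunnel, gave ratios of -0.75 on the Cd4Cre and -0.30 on the Foxp3Cre array at base 196, and of 0.82 and 0.93 at base 726. The other Rpl7a probe, at base 772, gave 0.39 and 0.09. Rps2, of the small subunit, gave -0.0034 and 0.50 at base 337, and 1.34 and 1.24 at base 869. For Rpl7a the sign of the gene therefore depended on the probe, with the deficient channel the brighter at the later probe and the wild-type channel at the earlier one. Rpl22, Rpl23 and Rpl7l1 ran the other way on both arrays, Rpl31 and Rps19bp1 on the Cd4Cre array alone, and Rps3a and Rps21 on the Foxp3Cre array alone.

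Across the brightest probe of each member, the start position had Spearman correlations with the ratio of 0.275 on the Cd4Cre and 0.286 on the Foxp3Cre array (83 genes), where all 14410 genes had -0.308 and -0.272. The values are descriptions across genes. Probes on sequences other than RefSeq transcripts also stood apart. These 21 probes had medians of -0.13 and -0.01, and the 116 on RefSeq transcripts had medians of 0.41 and 0.58. For example, Rps12 had 1.36 and 1.04 at its RefSeq probe and -0.99 and -0.31 at a dimmer probe of another accession, and Rps13 had 1.01 and 1.28 against -1.15 and -0.60. Ribosomal protein genes have many processed pseudogene copies, so signal shared with such copies cannot be told apart from the gene's own. For 2 members, Rpl10 and Rpl12, the probe's place in the files was on another chromosome than the gene.

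**Figure D4:**
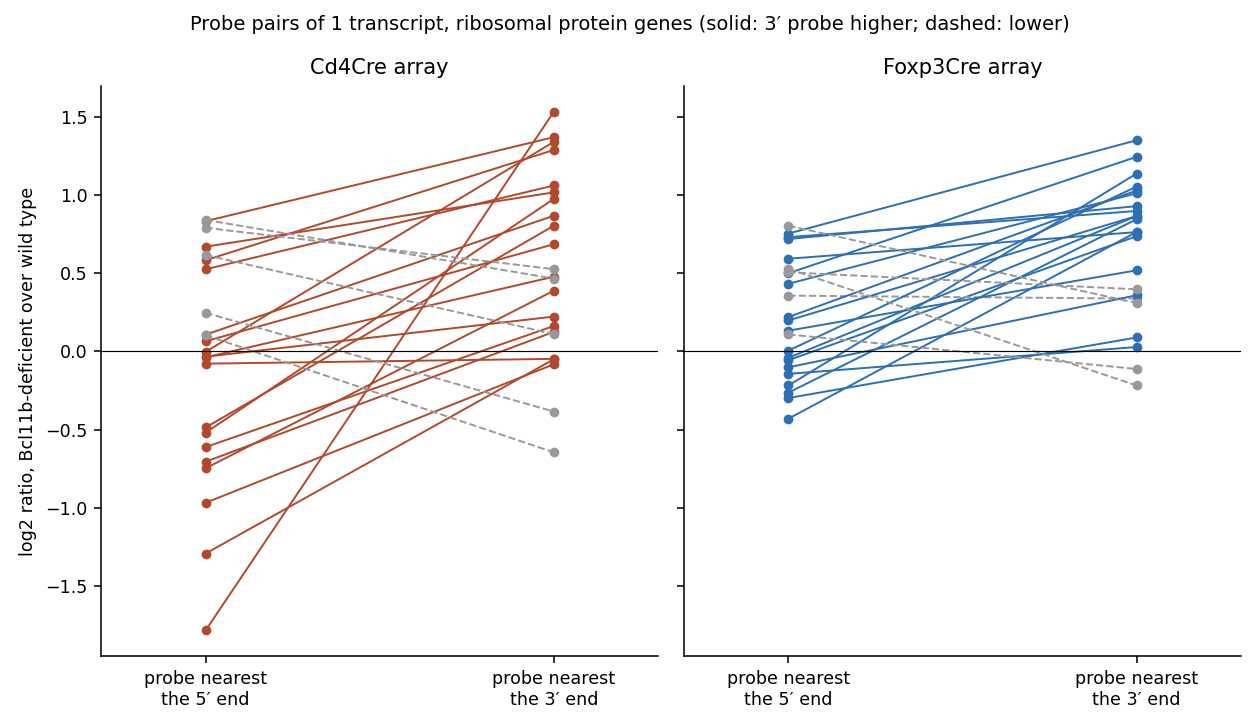
Log2 ratio, Bcl11b-deficient over wild type (vertical), of the probe nearest the 5′ end and the probe nearest the 3′ end of 23 members, 1 line per gene, on the Cd4Cre array (left) and the Foxp3Cre array (right). Solid lines mark the 18 genes per array whose 3′ probe gave the higher ratio, and dashed grey lines the others.

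The member probes were among the brightest on the arrays as scanner signals: 54 of the 100 brightest probes were theirs, and their median log2 signal was 17.25 on the Cd4Cre and 17.17 on the Foxp3Cre array, against 10.77 and 11.07 over all detected genes. With the member probes given no weight in the curve the medians changed to 0.51 and 0.84, and with a trend on probe GC content removed to 0.48 and 0.81. Every processing tried left both medians above 0 and above that of all genes.

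**Figure D5:**
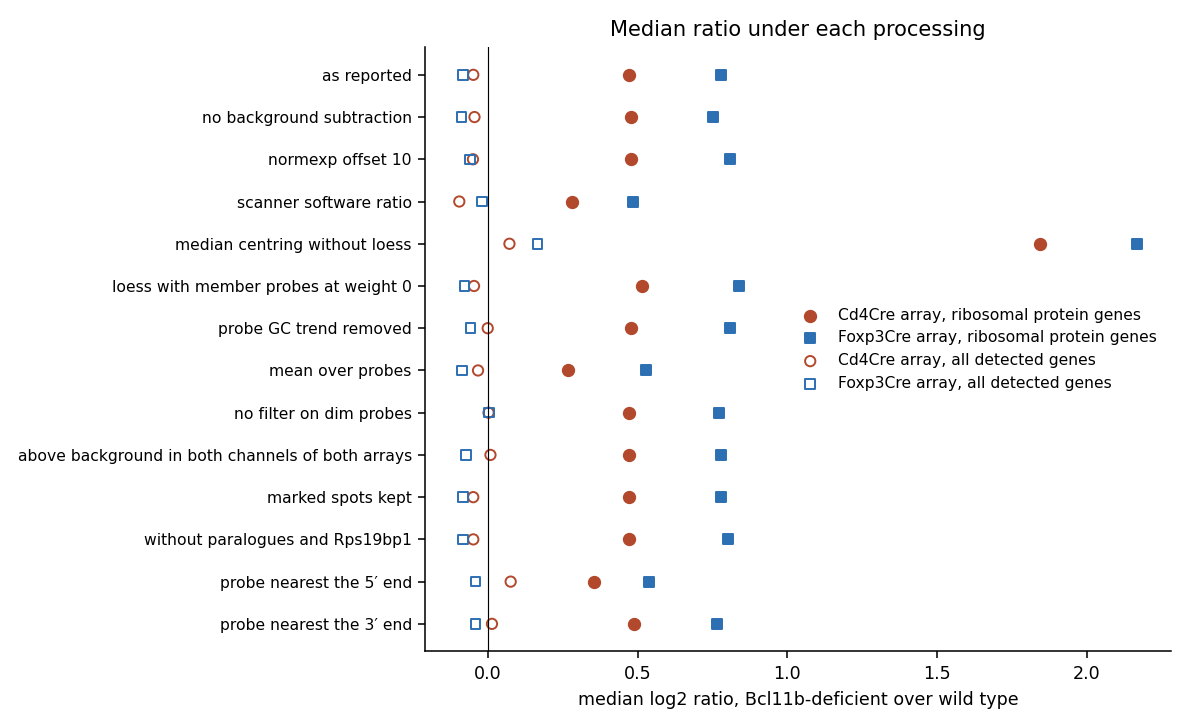
Median log2 ratio, Bcl11b-deficient over wild type (horizontal), under each processing (1 per row); filled symbols are the ribosomal protein genes and open symbols all detected genes, with circles for the Cd4Cre array and squares for the Foxp3Cre array. The filled symbols lie to the right of 0 in every row, from 0.27 to 2.17, and farthest right with median centring without loess.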

How the data were processed

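RNA was amplified and labelled by the Kreatech ULS method per the labels' protocols, and the scans were quantified in Agilent Feature Extraction, version 10.5.1.1 (Cd4Cre) and 10.7.3.1 (Foxp3Cre) per the file headers (10.5.1 per the submitters' processing notes). The authors deposited, per spot, mean and background intensity of each channel, flags, and a log10 ratio of Cy5 over Cy3 that is background-subtracted and dye-normalized per the file headers; their value table equals that ratio (largest difference 0) and was used as the scanner ratio alternative. From the deposited intensity, log2 ratios were computed with normexp (offset 50) and loess within each array in limma 3.58.1 under R 4.3.3, leaving out marked spots (137 and 155). Each gene took the value of whichever of its probes was brightest on average. The Cre system of each array was taken from the design text and the Foxp3-GFP label. No array was replicated, so single arrays have no test; limma tested the mean of both arrays against 0 (intercept only), which counts the difference between Cre systems as spread. The number of arrays limits the precision.

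The members and the gene lists were chosen with earlier results of these data known. Genes named are the 10 highest and 10 lowest members by mean ratio, members at least 2-fold on either array, the 5 that differ most between arrays in each direction, stalk genes, paralogues with their parents, members whose probes disagree by 1 or more in log2, genes of known outside roles, and the 2 highest and 2 lowest genes of other lists; Larp1, Myc, Rheb and further genes of the lists were chosen after their values were seen, and a few genes that the rule names are not reported here. Symbols of all 84 members matched RefSeq (GRCm38.p6, used for names and start sequences); probe places are the files' own, on mm9, and no genome was used. Alternatives were other background corrections, normalizations, filters, probe choices and leaving out an array; the probe nearest the 5′ or 3′ end was added after seeing the data.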

Additional observations from a re-analysis of the deposited data

Results flagged for a closer look

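The genes Rps3a, Rpl3 and Rps6 had opposite signs on the arrays, and the difference between the arrays was not tested. Each ratio was farther from 0 than the error that the software gave for its own scanner ratio. That error was not computed for the loess ratios used here, and for Rps6 on the Foxp3Cre array it was 0.2045 beside a ratio of 0.2115. Rps3a had log2 ratios of -0.97 (error 0.23) on the Cd4Cre array and 0.36 (error 0.20) on the Foxp3Cre array, a difference of 1.32. Rpl3 had ratios of -0.74 and 0.32, a difference of 1.06, and Rps6 of -0.82 and 0.21, a difference of 1.03.

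Outside the naming rule, 2 probes of a ribosomal protein gene carried an older name and were above background in both channels of both arrays. Both are Rplp0 probes listed as Arbp. Probes named as ribosomal protein pseudogenes and above background in both channels of both arrays numbered 0. The count goes by name alone, so it carries no information on pseudogene copies without such a name.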

How the results depend on the processing

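The median of the members stayed above 0 on both arrays in every processing tried. It changed by more than the spread of the arrays' medians with median centring (1.84 and 2.17 on the Cd4Cre and Foxp3Cre arrays) and, on the Foxp3Cre array, with the scanner ratio (0.48), the mean over probes (0.53) and the probe nearest the 5′ end (0.54). Members past 2-fold numbered 17 and 22 in either direction as reported, 68 and 77 with median centring (all higher, beside 18% and 13.4% of all genes), and 11 on the Foxp3Cre array with the scanner ratio (10 higher and 1 lower, beside 7.62% and 13.3% of all genes). The limma fit called 0 members as reported. With median centring it called 56 of the 83 members and 311 of all 14410 genes. It called 547 genes with the 5′ probe, of which 8 were members, and 453 with the 3′ probe, of which 9 were. With probes above background in both channels of both arrays it called 34, of which 1 (Rpl39l) was a member. The last 3 tested fewer genes, whose numbers are not given here, so their shares cannot be compared. The other fits called 0. The cause of these shifts was not tested.

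Mean ratios that turned sign were as follows. With median centring they were Rpl29 0.90, Rpl3 1.16, Rpl36al 0.91, Rpl37 1.02, Rpl7l1 0.53, Rplp0 0.92, Rps15 0.83, Rps3a 1.15, Rps6 1.03 and Rpsa 0.043. With the mean over probes they were Rpl13 -0.13, Rpl19 -0.19, Rpl22 -0.059, Rpl37 0.28, Rpl7l1 0.18, Rps4x -0.028 and Rpsa 0.020. With the 5′ probe they were Rpl19 -0.78, Rpl21 0.50, Rpl7 -0.37, Rpl7a -0.52, Rpl7l1 0.36 and Rps19 -0.27. With the 3′ probe they were Rpl21 0.50, Rpl22 -0.43, Rpl29 0.26, Rpl37 0.86, Rps19 -0.27, Rps3a 0.13 and Rpsa 1.15. Offset 10 gave Rpl7l1 0.031, loess with member probes at weight 0 gave Rpl7l1 0.0033, and the scanner ratio gave Rpl7l1 0.10 and Rps24 -0.058.

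Leaving out an array left 1 array with no test. The ratios then ran from -0.74 to 0.32 for Rpl3, -0.73 to 0.039 for Rps15, -0.97 to 0.36 for Rps3a, -0.82 to 0.21 for Rps6, -0.051 to 0.84 for Rpl19, -0.14 to 0.036 for Rpl36al, -0.20 to 1.39 for Rpl5, -0.18 to 0.91 for Rpl7, -0.11 to 0.11 for Rpl7l1 and -0.0034 to 0.50 for Rps2. No paired analysis was possible because each group has 1 array, and within each array the ratio already sets the deficient against the wild-type cells. Removal of a probe GC trend, no background subtraction, no filter on dim probes, keeping marked spots and the intensity trend in limma turned 0 of the 52 named members' signs.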
